A study of Homo sapiens with 12 samples.

Results

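The interferon stimulated genes described here are 43 genes that cells switch on when interferon reaches them, followed one by one across 6 groups of pancreatic ductal adenocarcinoma (PDAC) cells. They were matched by name to the gene names of the deposited array table. The 43 names cover 62 probes, of which 52 passed a detection p of 0.05 on 2 or more of the 12 arrays and were tested, among 24207 tested probes in all. These 52 probes stand for 41 genes, among 19089 gene names with a tested probe. CMPK2, a nucleotide kinase, was detected in 1 array and TRIM22, a ubiquitin ligase of the antiviral response, in 0 arrays, so neither has a change to report. Where a gene had several tested probes, the brightest one stands for it.

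The cells were MIA PaCa-2 and Capan-1, established lines derived from human PDAC tumors, and the study asked what the loss of focal adhesion kinase (FAK, gene PTK2) does to them. Every culture carried a doxycycline-inducible short hairpin RNA. In each line this was a control hairpin (shCtrl), hairpin sh1209 against FAK or hairpin sh1319 against FAK, which the Capan-1 labels spell shFAK1319. All groups, the controls included, were kept in doxycycline (50 ng/ml, 96 hours) and in puromycin, which MIA PaCa-2 cultures received at 3.5 ug/ml and Capan-1 cultures at 1.5 ug/ml. There were 2 arrays per group, 12 in all, on 1 Illumina HumanHT-12 v4 chip. No source used here says whether a group's 2 arrays stand for separate cultures, so the p-values measure the spread between these arrays, which may be technical. Each group is 1 line with 1 hairpin construct.

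Interferons bind receptors at the cell surface, and kinases of the JAK family then phosphorylate transcription factors such as STAT2. A complex that holds STAT2 and IRF9 binds a promoter element called the interferon stimulated response element (ISRE), while interferon gamma acts most of all through another element, the gamma activated site (GAS). The genes switched on in this way sense viral RNA, block viral entry, translation and release, and feed back on the pathway, and many carcinoma lines express some of them in culture with no interferon added.

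The ISRE is shown because it is the element through which many genes of this kind are switched on. A core of the letters GAAANNGAAA was searched on both strands (TTTCNNTTTC on the other) in the RefSeq promoter windows of GRCh38.p14, each 250 bases before to 50 bases after a gene's start. Windows were found for 35 of the 43 genes, with DDX58 matched under its current name. The core lay in a window of 25 of these 35 genes (71.4%), against 4.38% of all 27305 genes with a window, and at least 2 cores, which may overlap each other, lay in 1 window for 13 of the 35. The GAS core, TTCNNNGAA, which reads the same on both strands, lay in a window of 11 of the 35 (31.4%), against 9.38% of all genes. IFIT2, IFITM2, IRF7, MX2, OAS2, OASL, TRIM22 and USP18 had no window. A match is a description of letters and not of binding. The stretches below are those of the genes whose changes lead the results and that hold the core before the start, with the cores in capitals and 15 bases on each side. Only the window of a gene's most upstream start was used for them. This leaves out MX1, whose core lies elsewhere in its 3 windows. The stretches are written 5′ to 3′ on the gene's strand, and ISG15, BST2 and HERC5 hold overlapping cores.

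ISG15, chr1:1013369-1013414, plus strand: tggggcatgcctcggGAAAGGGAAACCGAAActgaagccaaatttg
HERC5, chr4:88456979-88457069, plus strand: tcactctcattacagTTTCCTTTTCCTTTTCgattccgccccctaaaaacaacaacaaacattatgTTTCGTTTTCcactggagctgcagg
IFIT1, chr10:89392492-89392544, plus strand: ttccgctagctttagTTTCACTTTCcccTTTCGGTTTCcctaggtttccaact
IFITM1, chr11:313985-314024, plus strand: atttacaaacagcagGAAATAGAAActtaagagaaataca
BST2, chr19:17405730-17405775, minus strand: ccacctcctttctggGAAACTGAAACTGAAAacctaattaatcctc
GBP1, chr1:89065311-89065350, minus strand: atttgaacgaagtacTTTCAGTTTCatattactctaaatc
ISG20, chr15:88638932-88638971, plus strand: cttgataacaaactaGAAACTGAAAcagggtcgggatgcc
LGALS3BP, chr17:78979957-78979996, minus strand: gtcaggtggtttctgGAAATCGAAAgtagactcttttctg
IFI27, chr14:94110613-94110665, plus strand: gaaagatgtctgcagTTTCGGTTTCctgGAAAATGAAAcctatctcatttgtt
IFI6, chr1:27672261-27672363, minus strand: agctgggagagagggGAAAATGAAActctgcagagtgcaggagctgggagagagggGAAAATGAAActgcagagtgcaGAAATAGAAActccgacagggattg

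PTK2, the gene both hairpins target, was lower at its brighter probe (450253) in every hairpin array than in the control arrays of its line. This probe fell by 2.24 with sh1209 and by 2.48 with sh1319 in MIA PaCa-2, and by 0.61 and 1.78 in Capan-1, all on the log2 scale (limma adjusted p 1.5e-07, 5.2e-08, 0.0036 and 5.9e-06). In Capan-1 its level was lower with sh1319 than with sh1209 by 1.16 ± 0.11 (SE, adjusted p = 6.2e-05). A dimmer PTK2 probe (2680750) passed in none of these 4 comparisons and gave, in MIA PaCa-2, 0.31 for sh1209 and -0.29 for sh1319, and -0.46 for each hairpin in Capan-1. Median intensities ran from 87.7 to 97.0 across the arrays, which detected 16259 to 19814 probes each. Of the epithelial genes, EPCAM and CDH1 were not detected in MIA PaCa-2 with shCtrl and KRT19 was higher in Capan-1 by 6.58, while KRT8 and KRT18 were detected in all arrays and did not pass between the lines at their brightest probes. VIM, an intermediate filament of mesenchymal cells, was lower in Capan-1 by -7.55, and ZEB1, a transcription factor of such cells, was detected in 0 arrays. Probes of the leukocyte markers CD3E and PTPRC were each detected in at most 1 array, a CD14 probe in 6 and CD68 in all 12. Some markers moved with the hairpins, and their part in the results was not tested. In MIA PaCa-2, CD68 rose with sh1209 (0.81 ± 0.11, SE, limma adjusted p = 4.6e-04; its second probe gave 0.38 and did not pass), KRT19 fell by 1.44 and 1.47 with sh1209 and sh1319, and KRT8 and KRT18 fell by 1.09 and 0.80 with sh1319. In Capan-1, CDH1 and PECAM1 rose with sh1209 (0.63 and 0.57) and VIM and LUM with sh1319 (0.47 and at least 1.20-fold). The other KRT18 probe (6280128) gave 0.02 with sh1319 in MIA PaCa-2 and did not pass. The other VIM probe (7050019) was detected in no Capan-1 array and gave 0.009 with sh1319 there. All levels below are log2 of background-corrected and quantile-normalized intensity, in which the arrays' lowest detected signals ran from 4.55 to 4.74. The correction understates the change of dim probes. A level here is RNA per unit of total RNA, so fewer expressing cells and less RNA per cell cannot be told apart.

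With the control hairpin, most of the 41 genes were higher in Capan-1. The comparison of Capan-1 with MIA PaCa-2, both with shCtrl, called 34 of the 52 member probes higher and 2 lower at an adjusted p under 0.05, against 42.1% of all tested probes called (19.6% higher and 22.5% lower). By gene, 28 were higher, 2 were lower and 11 did not pass. In MIA PaCa-2 with shCtrl, 20 of the 41 genes were detected in both arrays and 15 in neither, and in Capan-1 with shCtrl, 36 in both and 2 in neither. Of the 28 higher genes, 11 were not detected in MIA PaCa-2, so their difference is only a lower bound. A probe was tested if any 2 arrays detected it, and 11 of the 41 genes were detected in fewer than 2 of the 6 MIA PaCa-2 arrays and 0 in fewer than 2 of the 6 Capan-1 arrays. Those 11 entered through Capan-1 alone and the count of higher genes leans that way. The median difference of the 41 genes was 1.31, and 1.51 over the 39 genes detected in either group with such genes at their bound, against -0.04 over all tested probes.

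OASL, a relative of the oligoadenylate synthetases, lay at 9.11 and 9.09 in the Capan-1 control arrays and at 4.39 and 4.43, not detected, in those of MIA PaCa-2, at least 21.0-fold lower. SAMD9, an antiviral factor that limits translation, was at least 12.7-fold higher in Capan-1, MX1 at least 9.50-fold, HERC5 at least 6.60-fold and OAS1 at least 6.07-fold. IFI44, which was detected in 1 MIA PaCa-2 control array, was higher in Capan-1 by 4.75 ± 0.17 (SE, adjusted p = 6.9e-10). Of the 41 genes, 35 had both Capan-1 control arrays above both MIA PaCa-2 control arrays, against 31.7% of all probes. For 2 genes they lay below, against 35.9% of all probes. OASL, HERC5 and IFI44 are among the 11 genes that entered through Capan-1 alone. The 2 genes that were lower in Capan-1 were IFITM1, which hinders the entry of viruses at the cell membrane, by -0.81 ± 0.17, and IFI6, a small membrane protein, by -0.72 ± 0.17 (adjusted p 0.0017 and 0.0046). The IFI6 value is that of its brightest probe, and its other tested probe was not called lower. IFITM2, IFITM3, IRF1, XAF1 and GBP1 were detected in at least 1 array of each line and did not pass. PARP14, a mono-ADP-ribosyltransferase, was higher in Capan-1 by 0.73, but by 0.35 and 0.58 and no longer past the threshold without MIA PaCa-2 shCtrl replicate 1 or Capan-1 shCtrl replicate 2. The call for STAT2 (0.50) was lost without Capan-1 shCtrl replicate 2 (0.46).

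**Figure D1:**
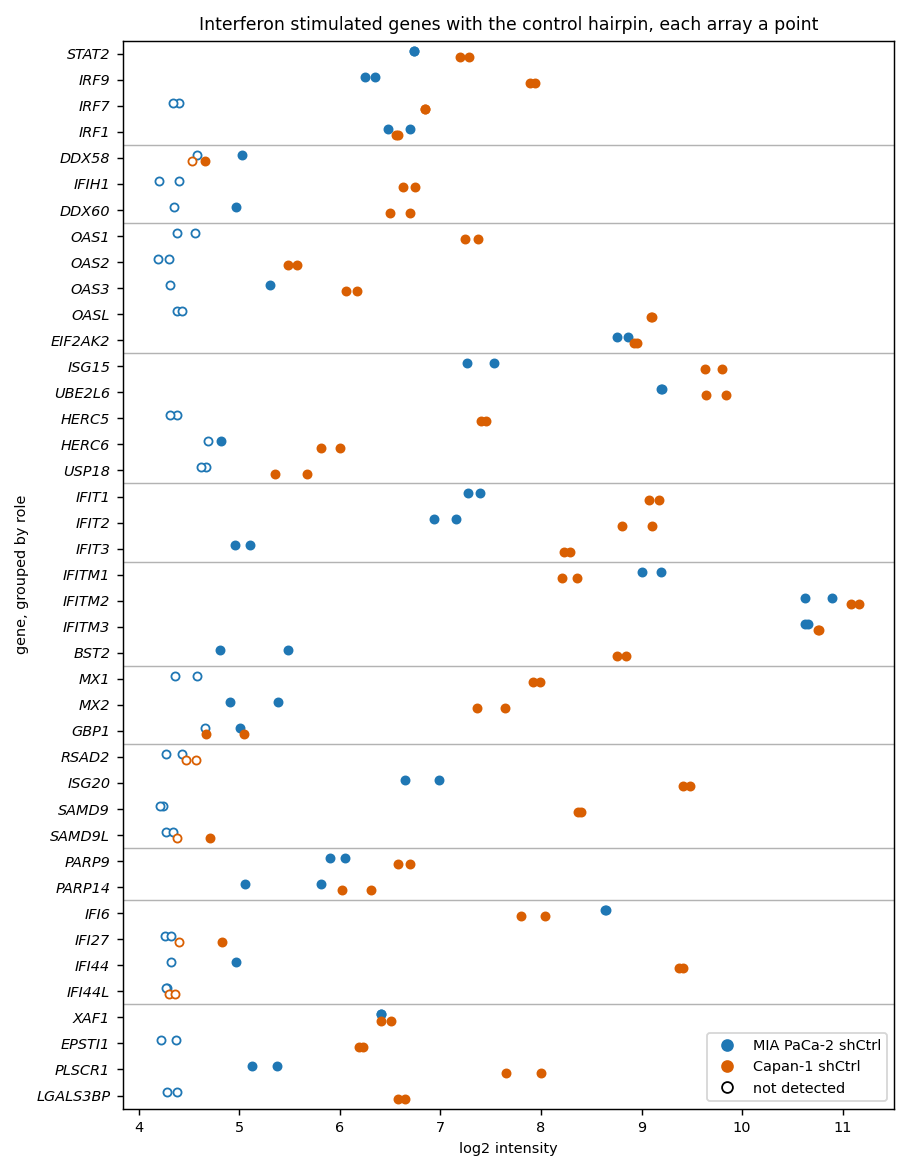
Log2 intensity (horizontal axis) of each of the 41 genes (rows, grouped by role) in the 2 shCtrl arrays of MIA PaCa-2 (blue) and of Capan-1 (orange). Filled points are arrays that detected the probe and open points are arrays that did not: 15 genes have only open points in MIA PaCa-2 and 2 genes in Capan-1.

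Set against the shCtrl arrays of the same line, the counts were as follows. With sh1209 in MIA PaCa-2, 5 member probes were higher and 4 lower, against 18.0% of all tested probes called (9.05% higher and 8.99% lower), so the share of member probes called (9 of 52) was close to the background. With sh1319 in MIA PaCa-2, 21 were higher and 5 lower, against 24.3% of all probes called (12.2% higher and 12.1% lower). With sh1209 in Capan-1, 20 were higher and 1 lower, against 16.8% called (8.14% higher and 8.69% lower). With sh1319 in Capan-1, 11 were higher and 18 lower, against 13.7% called (6.95% higher and 6.77% lower). The 2 comparisons of a line share its shCtrl arrays. Scaling the arrays to a common median in place of quantile normalization gave 2 higher and 3 lower, 21 and 2, 20 and 0, and 10 and 10 in the same order. That scaling moved the median of all probes to as much as 0.11 (sh1319 in Capan-1), and split all calls in Capan-1 into 2009 higher and 450 lower for sh1209 and 1936 and 334 for sh1319, where quantile normalization gave 1971 and 2103, and 1682 and 1640.

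By gene, 5 of the 41 were higher and 2 lower with sh1209 in MIA PaCa-2, and 16 were higher and 5 lower with sh1319. In Capan-1, 17 were higher and 1 lower with sh1209, and 10 were higher and 13 lower with sh1319. The median log2 differences were 0.05, 0.21, 0.30 and -0.03, where the median over all tested probes lay between -0.01 and 0.01. In MIA PaCa-2, with a gene at its bound where 1 group did not detect it, the medians were 0.00 over 30 genes for sh1209 and 0.27 over 33 genes for sh1319. When each of the 12 arrays was left out in turn, 4 of the 7 calls for sh1209 in MIA PaCa-2 held every time, 15 of 21 for sh1319 in MIA PaCa-2, 11 of 18 for sh1209 in Capan-1 and 14 of 23 for sh1319 in Capan-1. The count of member probes for sh1209 in Capan-1 went from 21 to 13 without Capan-1 sh1209 replicate 1 and to 11 without Capan-1 shCtrl replicate 2. That for sh1319 in Capan-1 went from 29 to 18, 19 and 16 without Capan-1 shCtrl replicate 1, shCtrl replicate 2 and sh1319 replicate 2. Median scaling turned the sign of no called gene in the 4 pairs but ended some calls. In MIA PaCa-2 these were EIF2AK2, HERC6, IFIT2 and IFITM1 with sh1209 and STAT2, IFITM2, IFITM3 and PARP9 with sh1319. In Capan-1 they were IFITM3 and XAF1 with sh1209 and OAS1, EIF2AK2, IFIT2, IFITM3, SAMD9 and IFI44L with sh1319.

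**Figure D2:**
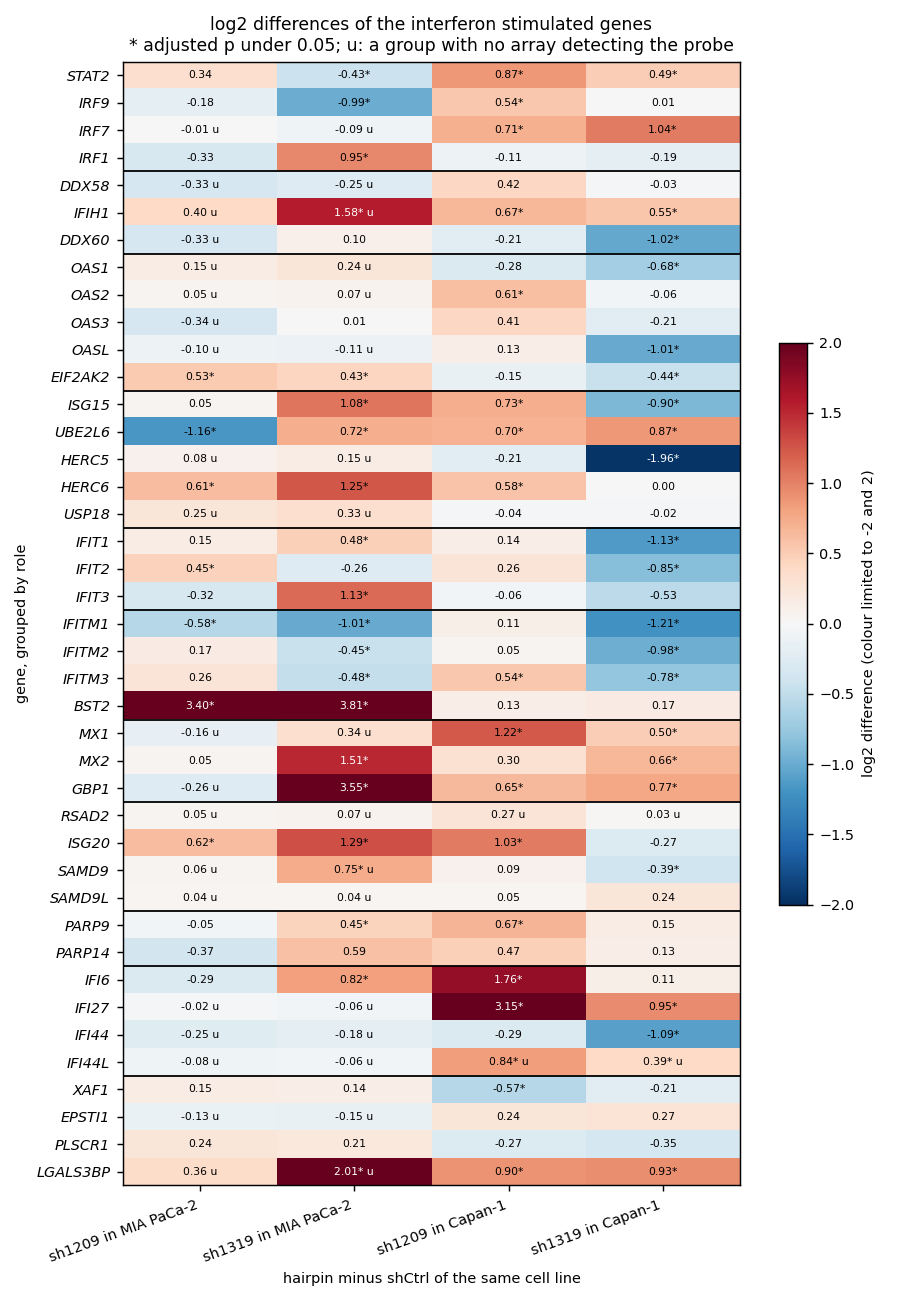
Log2 difference between a hairpin and the shCtrl of the same line (columns) for each of the 41 genes (rows, separated by lines into roles), red for higher and blue for lower with the hairpin. An asterisk marks a limma adjusted p under 0.05 and u a probe that no array of 1 or both groups detected: the fourth column holds 13 marked blue cells and the third column holds 1.

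Of the 4 transcription factors of the response, 0 were called with sh1209 in MIA PaCa-2, and 1 was higher and 2 were lower with sh1319. In Capan-1, 3 were higher with sh1209 and 2 with sh1319, and 0 were lower. STAT2, which carries the activating domain of the ISRE-binding complex, lay at 6.74 and 6.73 in the MIA PaCa-2 control arrays, 6.94 and 7.21 with sh1209 and 6.31 and 6.30 with sh1319. In Capan-1 it lay at 7.19 and 7.28 with shCtrl, 7.94 and 8.28 with sh1209 and 7.73 and 7.72 with sh1319. The arrays of each hairpin did not overlap those of shCtrl, and STAT2 was lower with sh1319 in MIA PaCa-2 (-0.43 ± 0.14, SE, limma adjusted p = 0.041) and higher with both hairpins in Capan-1 (0.87 and 0.49 ± 0.14, adjusted p 0.0013 and 0.038). The first call was lost without any 1 of the 4 arrays compared or of the Capan-1 shCtrl and sh1319 arrays (adjusted p 0.053 to 0.14). That for sh1319 in Capan-1 was lost without any 1 of the 4 arrays compared or of the MIA PaCa-2 sh1319 arrays (0.052 to 0.18).

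IRF9, the DNA-binding partner of STAT2, was lower with sh1319 in MIA PaCa-2, at 5.42 and 5.20 against 6.25 and 6.35 with shCtrl, a difference of -0.99 ± 0.13 (SE, limma adjusted p = 1.4e-04). In Capan-1 it lay at 7.94 and 7.89 with shCtrl, at 8.40 and 8.51 with sh1209 (0.54 ± 0.13, adjusted p = 0.012) and at 7.89 and 7.95 with sh1319 (0.01 ± 0.13). The rise with sh1209 missed the threshold without Capan-1 shCtrl replicate 1 or 2 or without Capan-1 sh1209 replicate 2 (adjusted p up to 0.083). IRF1, which interferon gamma induces through the GAS, was higher with sh1319 in MIA PaCa-2, at 7.60 and 7.49 against 6.70 and 6.47, by 0.95 ± 0.18 (adjusted p = 0.0021), and did not pass in the other 3 pairs. IRF7, which amplifies the production of type I interferon, was not detected in any MIA PaCa-2 array. In Capan-1 it rose from 6.85 and 6.84 to 7.65 and 7.46 with sh1209 and to 7.96 and 7.81 with sh1319, by 0.71 and 1.04 ± 0.13 (adjusted p 0.0034 and 4.2e-04). A dimmer IRF7 probe (1470382), which no shCtrl array detected, gave 0.33 and 0.42 and did not pass.

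Among the RNA sensors, IFIH1 (MDA5), which recognizes long double-stranded RNA, was higher in 3 of the 4 pairs. It was not detected in the MIA PaCa-2 control arrays and lay at 5.71 and 6.04 with sh1319, at least 2.25-fold higher (adjusted p = 1.2e-05). In Capan-1 it was higher by 0.67 with sh1209 and 0.55 with sh1319. The first of these missed the threshold without Capan-1 shCtrl replicate 2 or Capan-1 sh1209 replicate 1 (0.61 and 0.55), and the second without any 1 of the 4 arrays compared (0.48 to 0.63). DDX60, a helicase that promotes such sensing, was lower with sh1319 in Capan-1, at 5.46 and 5.70 against 6.70 and 6.50 (-1.02 ± 0.19, adjusted p = 0.0043). DDX58 (RIG-I) lay near the detection limit throughout and passed in no pair.

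The enzymes that double-stranded RNA activates include the oligoadenylate synthetases, whose product switches on RNase L, and EIF2AK2 (PKR), which halts translation. With sh1319 in Capan-1, 3 of the 5 were lower and 0 higher. OASL lay at 8.07 and 8.11 with sh1319 against 9.11 and 9.09 with shCtrl and 9.23 and 9.23 with sh1209, a fall of 1.01 ± 0.11 from shCtrl (SE, adjusted p = 1.8e-04), and its other probe (6280543) fell by 1.06. OAS1 gave -0.68 ± 0.17 (adjusted p = 0.018), and -0.94 and -0.65 with its other tested probes (1090390 and 7040035), all past the threshold. The call of the brightest probe was lost without Capan-1 shCtrl replicate 1 (-0.62), shCtrl replicate 2 (-0.75) or sh1319 replicate 2 (-0.48). EIF2AK2 rose with sh1209 in MIA PaCa-2 (0.53 ± 0.11, adjusted p = 0.0051). With sh1319 it was higher in MIA PaCa-2 (0.43) and lower in Capan-1 (-0.44), and the first of these was lost without MIA PaCa-2 shCtrl replicate 1 or either sh1319 array (0.37 to 0.43) and the second without any 1 of the 4 arrays compared (-0.47 to -0.41). OAS2 rose with sh1209 in Capan-1 (0.61 ± 0.11, adjusted p = 0.0039), and OAS3 passed in no pair.

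ISG15 is a ubiquitin-like protein that is attached to other proteins by UBE2L6, its conjugating enzyme, and HERC5, its main human ligase. ISG15 (probe 2100196) lay at 7.27 and 7.53 in the MIA PaCa-2 control arrays, at 7.39 and 7.51 with sh1209 and at 8.53 and 8.42 with sh1319. In Capan-1 it lay at 9.80 and 9.64 with shCtrl, 10.44 and 10.47 with sh1209 and 8.91 and 8.74 with sh1319. The arrays of the groups overlapped only for sh1209 in MIA PaCa-2. ISG15 was thus higher with sh1319 in MIA PaCa-2 (1.08 ± 0.13, limma adjusted p = 9.3e-05), higher with sh1209 in Capan-1 (0.73 ± 0.13, adjusted p = 0.0027) and lower with sh1319 in Capan-1 (-0.90 ± 0.13, adjusted p = 0.001), and each of these calls held with any 1 array left out.

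UBE2L6 (probe 2070170) was lower with sh1209 in MIA PaCa-2, at 8.06 and 8.01 against 9.21 and 9.19, a fall of 1.16 ± 0.12 (SE, adjusted p = 4.6e-05), and its other probe (7000368) fell by 0.79. In the other 3 pairs UBE2L6 was higher, by 0.72, 0.70 and 0.87 ± 0.12, and the other probe also passed in all 3. HERC5 (probe 5720482) lay at 7.41 and 7.45 in the Capan-1 control arrays, 7.33 and 7.11 with sh1209 and 5.44 and 5.49 with sh1319. This drop with sh1319, by 1.96 ± 0.17 (3.90-fold, adjusted p = 3.7e-05), was the largest fall of any member in the 4 pairs. HERC6, which lies next to HERC5 on chromosome 4 and is a related ligase, did not fall with it: it lay at 6.0 and 5.82 with shCtrl and at 5.87 and 5.94 with sh1319. In MIA PaCa-2, HERC6 rose with both hairpins, by 0.61 and 1.25 ± 0.13 (adjusted p 0.0075 and 3.7e-05). USP18, which removes ISG15 and restrains the receptor, passed in no pair.

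The IFIT proteins bind foreign RNA and hold back its translation. IFIT1 (probe 2000148) lay at 9.17 and 9.07 in the Capan-1 control arrays, 9.22 and 9.30 with sh1209 and 7.86 and 8.12 with sh1319, a fall of 1.13 ± 0.14 with sh1319 (SE, adjusted p = 4.0e-04). IFIT2 fell by 0.85 ± 0.14 in the same comparison (adjusted p = 0.002). The 3 IFIT3 probes gave -0.53 (520408, adjusted p = 0.094), -0.63 (1500280, 0.011) and -0.63 (6510170, 0.048). In MIA PaCa-2 with sh1319, the brightest of the 3 IFIT3 probes (520408) was higher by 1.13 ± 0.19 (adjusted p = 0.0011). IFIT1 was higher by 0.48 there, a call lost without MIA PaCa-2 shCtrl replicate 1 (0.42), shCtrl replicate 2 (0.54) or sh1319 replicate 2 (0.33). IFIT2 rose with sh1209 in MIA PaCa-2 (0.45, adjusted p = 0.041), a call lost without either MIA PaCa-2 sh1209 array, MIA PaCa-2 shCtrl replicate 2 or any 1 of the Capan-1 sh1209 and sh1319 arrays (0.34 to 0.51). A dimmer IFIT1 probe (2690435), detected in no MIA PaCa-2 array, gave -0.09 with sh1319 in Capan-1. With sh1209 in MIA PaCa-2, probe 1500280 of IFIT3 was not detected and at least 1.56-fold lower than with shCtrl, while the brightest IFIT3 probe gave -0.32 and did not pass.

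The membrane restriction factors held the largest rise and a shared fall. BST2 (tetherin, probe 4900674), which holds budding virus at the cell surface, lay at 4.81 and 5.49 in the MIA PaCa-2 control arrays, close to the detection limit, and at 8.49 and 8.60 with sh1209 and 8.99 and 8.92 with sh1319. The rises were 3.40 and 3.81 ± 0.19 (SE, 10.6- and 14.0-fold, adjusted p 3.2e-07 and 9.7e-08). With sh1319 BST2 reached the range of the Capan-1 arrays, 8.76 to 9.12 in all 6, and with sh1209 it stayed below that range. In Capan-1 the differences were 0.13 and 0.17 ± 0.19 and did not pass. IFITM1, IFITM2 and IFITM3, neighbors on chromosome 11 whose products hinder viral entry, were all lower with sh1319 in both lines. In MIA PaCa-2, IFITM1 lay at 9.0 and 9.19 with shCtrl, 8.42 and 8.62 with sh1209 and 8.22 and 7.96 with sh1319. In Capan-1 the same groups lay at 8.36 and 8.21, 8.51 and 8.29, and 7.29 and 6.86. Its falls with sh1319 were 1.01 and 1.21 ± 0.17 (adjusted p 8.8e-04 and 7.1e-04).

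With sh1319, IFITM2 fell by 0.45 in MIA PaCa-2 and by 0.98 in Capan-1, and IFITM3 by 0.48 and 0.78. The MIA PaCa-2 calls were lost without sh1319 replicate 1, shCtrl replicate 2 or sh1319 replicate 2 for IFITM2 (-0.46, -0.32 and -0.44) and without the last 2 of these for IFITM3 (-0.47 and -0.39), while the Capan-1 calls held with any 1 array left out. With sh1209, IFITM1 was lower in MIA PaCa-2 (-0.58, adjusted p = 0.032), a call lost without any 1 of the 4 arrays compared (-0.68 to -0.47). IFITM3 was higher with sh1209 in Capan-1 (0.54, adjusted p = 0.01), a call lost without Capan-1 shCtrl replicate 1 (0.54), shCtrl replicate 2 (0.55) or sh1209 replicate 1 (0.47). Under median scaling, IFITM2 and IFITM3 lay below shCtrl with sh1319 by -0.38 and -0.41 in MIA PaCa-2.

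The interferon induced GTPases were higher or did not pass in every pair, and 0 of the 3 were called lower. GBP1 (probe 2190148), a guanylate-binding protein that coats intracellular pathogens, lay at 5.0 and 4.66 in the MIA PaCa-2 control arrays, was not detected with sh1209, and lay at 8.42 and 8.33 with sh1319, a difference of 3.55 ± 0.20 (SE, adjusted p = 2.7e-07). Only 1 of the 2 control arrays detected this probe, so the size of the rise is uncertain. Its other probe (6840035), which neither control array detected, was at least 7.23-fold higher with sh1319. In Capan-1 the brighter GBP1 probe was higher by 0.65 with sh1209 and 0.77 with sh1319, but the other probe gave 0.21 and 0.22 and did not pass, and the calls were lost for sh1209 without any 1 of the 4 arrays compared or of the MIA PaCa-2 sh1209 and sh1319 arrays (0.46 to 0.83) and for sh1319 without Capan-1 shCtrl replicate 1 or sh1319 replicate 2 (0.59 and 0.44). MX1, a dynamin-like GTPase that traps viral particles, rose with sh1209 in Capan-1 from 7.92 and 7.99 to 9.17 and 9.19 (1.22 ± 0.12, adjusted p = 3.5e-05). With sh1319 it lay at 8.40 and 8.51 there (0.50, adjusted p = 0.016, lost without either shCtrl array, 0.47 and 0.53, or without sh1319 replicate 2, 0.45). MX2, its neighbor on chromosome 21, was higher with sh1319 in MIA PaCa-2 by 1.51 ± 0.17 (adjusted p = 4.9e-05).

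**Figure D3:**
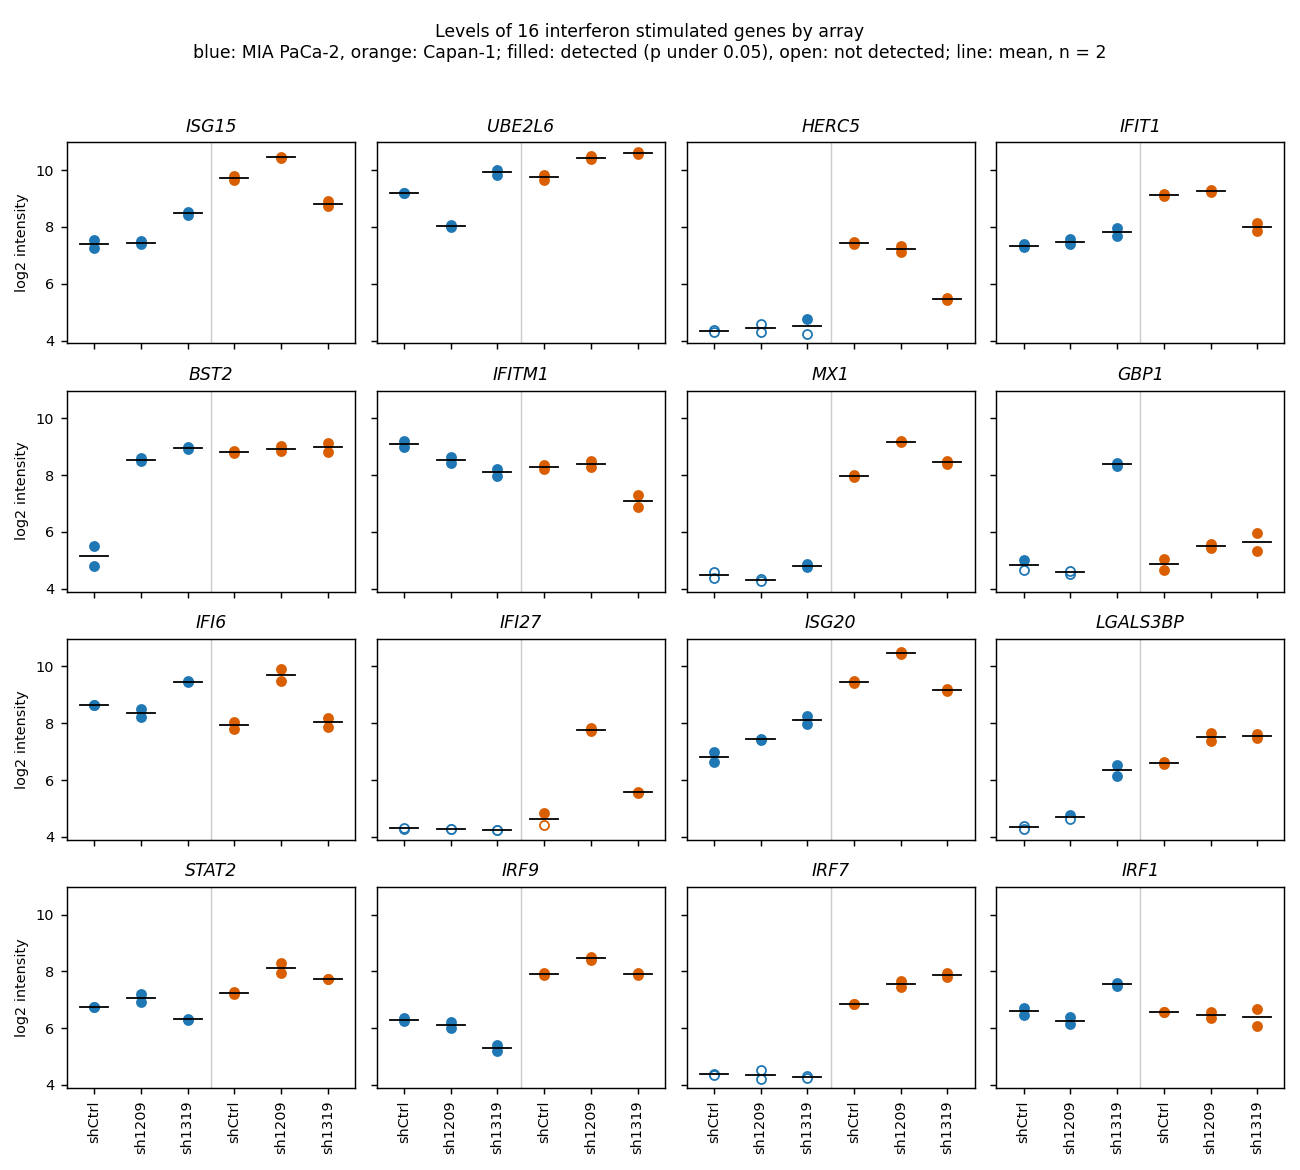
Log2 intensity (vertical axis) of 16 genes in each of the 12 arrays, by hairpin, in MIA PaCa-2 (blue) and Capan-1 (orange); lines are group means, n = 2. Open points were not detected: BST2 rises in MIA PaCa-2 with both hairpins, GBP1 with sh1319, IFI27 in Capan-1 with sh1209 above all, and HERC5 falls in Capan-1 with sh1319.

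Among the effectors that act on nucleotides and replication, ISG20 (probe 6330132), an exonuclease that degrades viral RNA, lay at 6.65 and 6.98 with shCtrl, 7.45 and 7.43 with sh1209 and 8.25 and 7.96 with sh1319 in MIA PaCa-2. In Capan-1 it lay at 9.41 and 9.48, 10.51 and 10.45, and 9.20 and 9.15. ISG20 was higher with sh1319 in MIA PaCa-2 (1.29 ± 0.14, SE, adjusted p = 4.0e-05) and with sh1209 in Capan-1 (1.03 ± 0.14, adjusted p = 4.4e-04). It was higher by 0.62 with sh1209 in MIA PaCa-2 (adjusted p = 0.0089), which became 0.45 (0.077) without MIA PaCa-2 shCtrl replicate 1. SAMD9 was at least 1.20-fold higher with sh1319 in MIA PaCa-2, where shCtrl did not detect it, and lower in Capan-1 with sh1319 (-0.39, adjusted p = 0.03, lost without any 1 of the 4 arrays compared, -0.43 to -0.36). SAMD9L, next to SAMD9 on chromosome 7, and RSAD2 (viperin) lay near the detection limit and passed in no pair. PARP9, an ADP-ribosyltransferase partner that supports the response, was higher with sh1319 in MIA PaCa-2 (0.45, lost without either shCtrl array, 0.52 and 0.37, or without sh1319 replicate 2, 0.31) and with sh1209 in Capan-1 (0.67, lost without shCtrl replicate 2 or sh1209 replicate 1, 0.62 for both), and its other probe (3140707) gave 0.79 and 0.48, past the threshold. PARP14 passed in none of the 4 pairs.

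The IFI family held the largest rises in Capan-1. IFI27 (probe 3990170), a small mitochondrial membrane protein, was not detected in any MIA PaCa-2 array. In Capan-1 it lay at 4.83 and 4.41 with shCtrl, at 7.71 and 7.82 with sh1209 and at 5.54 and 5.59 with sh1319, differences of 3.15 and 0.95 ± 0.14 (SE, adjusted p 4.8e-08 and 0.001) from a control level that only 1 of the 2 arrays detected. IFI6 (probe 5090215), a related protein, lay at 8.04 and 7.80 with shCtrl, 9.89 and 9.48 with sh1209 and 8.20 and 7.88 with sh1319 in Capan-1, where the sh1319 and control arrays overlapped. It was higher with sh1209 in Capan-1 (1.76 ± 0.17, adjusted p = 3.8e-05) and with sh1319 in MIA PaCa-2 (0.82 ± 0.17, adjusted p = 0.0041). Its other probe (1010246) gave 1.00 and 0.96, also past the threshold.

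IFI44 and IFI44L, neighbors on chromosome 1 that code for related proteins, differed in Capan-1. IFI44 lay at 9.38 and 9.41 with shCtrl, 9.18 and 9.03 with sh1209 and 8.29 and 8.31 with sh1319, a fall of 1.09 ± 0.17 with sh1319 (SE, adjusted p = 0.0017). IFI44L was not detected with shCtrl and lay at 5.23 and 5.12 with sh1209, at least 1.49-fold higher (adjusted p = 2.8e-04). With sh1319 it lay at 4.75 and 4.70, at least 1.09-fold higher, a call lost without any 1 of the 4 arrays compared (adjusted p 0.092 to 0.14). Of the remaining members, LGALS3BP (probe 4290730), a secreted galectin-binding glycoprotein, was not detected in the MIA PaCa-2 control arrays and lay at 6.55 and 6.15 with sh1319, at least 3.12-fold higher (adjusted p = 2.3e-06). In Capan-1 it rose from 6.64 and 6.58 to 7.37 and 7.65 with sh1209 and 7.47 and 7.61 with sh1319 (0.90 and 0.93 ± 0.15, adjusted p 0.002 and 0.0022). XAF1, a proapoptotic factor, was lower with sh1209 in Capan-1 (-0.57, adjusted p = 0.036), a call lost without any 1 of the 4 arrays compared or Capan-1 sh1319 replicate 1 (-0.63 to -0.53). EPSTI1 and PLSCR1 passed in no pair.

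The hairpins were then set against each other within a line, which leaves the shCtrl arrays out of the difference. In MIA PaCa-2, sh1319 gave 21 member probes higher and 5 lower than sh1209, against 22.6% of all probes called (11.2% higher and 11.5% lower). In Capan-1 it gave 0 higher and 26 lower, against 11.3% called (5.47% higher and 5.81% lower). By gene this was 15 higher and 5 lower in MIA PaCa-2 and 0 higher and 20 lower in Capan-1, with medians of 0.08 and -0.47. The lines share no arrays, and 7 genes were higher with sh1319 in MIA PaCa-2 and lower with it in Capan-1 (46.7% of the 15 and 35.0% of the 20): ISG15, HERC6, MX1, ISG20, SAMD9, PARP9 and IFI6. These shares are near those of all 41 genes, of which 48.8% were lower in Capan-1 and 36.6% higher in MIA PaCa-2. IRF9, IFIT2, IFITM2 and IFITM3 were lower with sh1319 in both lines (80.0% of the 5 called lower in MIA PaCa-2), and 0 genes were higher in both. Of these 11 genes, ISG15, IFI6 and ISG20 kept both calls under median scaling, and ISG15 and IFI6 also with any 1 array left out. In Capan-1 the calls for HERC6, PARP9 and IRF9 were lost without any 1 of the 4 arrays compared (-0.61 to -0.46) and that for SAMD9 without either sh1209 array or sh1319 replicate 2 (-0.51 to -0.46). In MIA PaCa-2 the calls were lost for HERC6 without sh1319 replicate 2 (0.47), for MX1 without sh1319 replicate 1 or sh1209 replicate 2 (0.47 and 0.46), for ISG20 without sh1319 replicate 1 (0.52) and for PARP9 without sh1209 replicate 1 or sh1319 replicate 2 (0.38 and 0.36). Median scaling ended the Capan-1 calls of HERC6, SAMD9, PARP9 and IRF9 and the MIA PaCa-2 calls of MX1, PARP9, IFIT2, IFITM2 and IFITM3, with no change of sign.

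ISG15 was higher with sh1319 than with sh1209 by 1.03 ± 0.13 in MIA PaCa-2 and lower by -1.63 ± 0.13 in Capan-1 (SE, limma adjusted p 1.5e-04 and 1.2e-05). IFI6 was higher by 1.11 ± 0.17 and lower by -1.65 ± 0.17 (adjusted p 6.0e-04 and 9.4e-05). The largest differences in Capan-1 were those of IFI27 (-2.20 ± 0.14) and HERC5 (-1.76 ± 0.17), and in MIA PaCa-2 those of UBE2L6 (1.88 ± 0.12) and GBP1, at least 13.1-fold higher with sh1319. In Capan-1, 28 of the 41 genes had both sh1319 arrays below both sh1209 arrays, against 24.8% of all probes, and 5 had them above, against 27.1%. The count of 26 probes in Capan-1 became 14, 16 and 16 without Capan-1 sh1209 replicate 1, sh1319 replicate 1 and sh1319 replicate 2, and 16 under median scaling, with 0 higher in each of these. Of the 20 genes lower in Capan-1, 13 held with every array left out in turn, and 15 of the 20 called in MIA PaCa-2.

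A test of the difference between the lines, added after these values were seen, took sh1319 minus sh1209 in Capan-1 minus the same in MIA PaCa-2. It called 32 of the 52 member probes, all of them lower, against 14.4% of all tested probes (6.79% higher and 7.58% lower). By gene, 24 of 41 were lower and 0 higher, with a median of -0.97 against 0.03 over all probes, and 19 of the 24 held with every array left out in turn. For the 11 genes that fewer than 2 MIA PaCa-2 arrays detected, this difference is little more than the change in Capan-1. Among the other 30 genes, 19 were lower and 0 higher, with a median of -1.14. The difference was -2.66 ± 0.18 for ISG15, -2.76 ± 0.24 for IFI6, -1.97 ± 0.20 for ISG20 and -3.68 ± 0.29 for GBP1 (SE, adjusted p 3.4e-06, 2.1e-05, 5.4e-05 and 8.4e-06). For GBP1 it rests on a probe that sh1209 arrays of MIA PaCa-2 did not detect, and for IFI27 (-2.16 ± 0.19) on one that no MIA PaCa-2 array detected. The brighter PTK2 probe was also lower in this test (-0.93 ± 0.16, adjusted p = 0.0028), while the dimmer one gave 0.59 (adjusted p = 0.12), and the part of PTK2 in the difference was not tested.

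**Figure D4:**
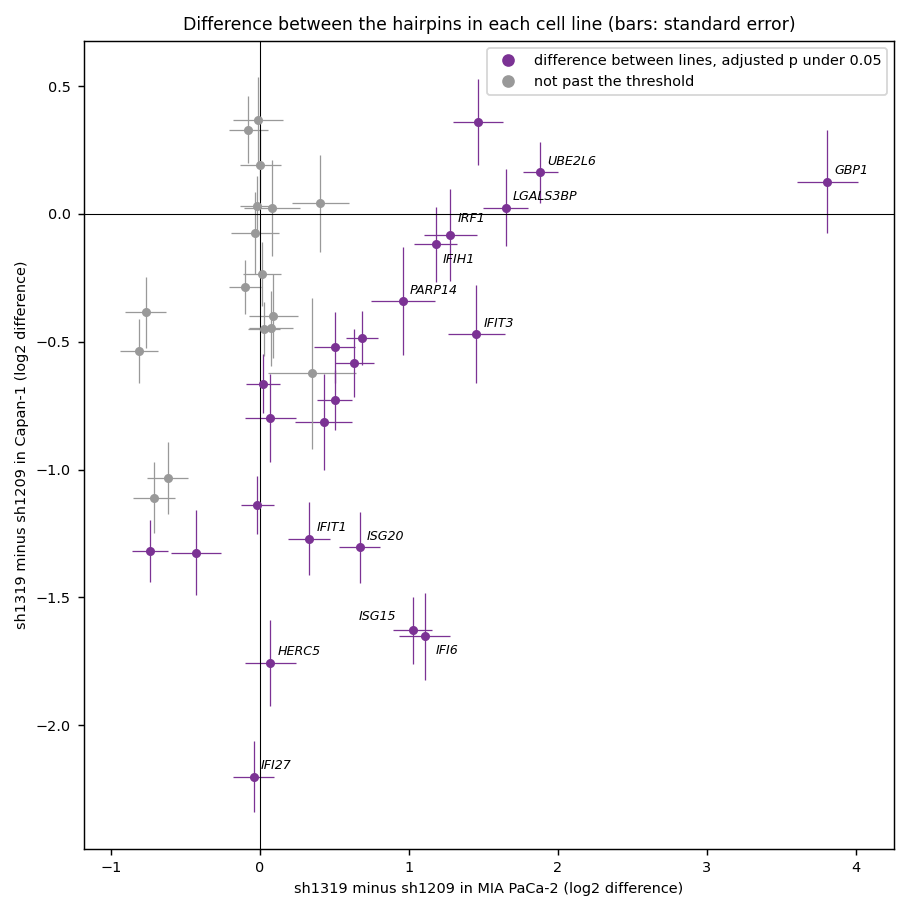
Difference between sh1319 and sh1209 in MIA PaCa-2 (horizontal axis) and in Capan-1 (vertical axis), in log2 units with standard errors, for the 41 genes. Purple points are the 24 genes whose difference between the lines passed, all of them lower in Capan-1, and names mark those with a difference over 1.3 in size.

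The effect of each hairpin against shCtrl also differed between the lines. For sh1209, 13 member probes were higher in Capan-1 than in MIA PaCa-2 and 2 lower, against 14.8% of all probes called (7.44% higher and 7.41% lower), and without Capan-1 shCtrl replicate 2 the 15 calls became 9. For sh1319, 4 were higher and 25 lower, against 14.0% called (6.87% higher and 7.10% lower), and median scaling gave 3 and 11. Among the 30 genes that at least 2 arrays of each line detected, 6 were higher and 2 lower for sh1209, and 2 were higher and 15 lower for sh1319. With sh1209 the genes whose change was higher in Capan-1 included IFI27 (3.16 ± 0.19), IFI6 (2.05 ± 0.24), UBE2L6 (1.86 ± 0.17) and MX1 (1.39 ± 0.17). With sh1319 the change was lower in Capan-1 for ISG15 (-1.97 ± 0.18), HERC5 (-2.12 ± 0.24), IFIT1 (-1.61 ± 0.20) and IFIT3 (-1.66 ± 0.27), and higher for STAT2 (0.92 ± 0.20, 0.98 and not past the threshold under median scaling), IRF9 (1.00 ± 0.18), IRF7 (1.12 ± 0.18) and IFI27 (1.01 ± 0.19). HERC5 was detected in 1 MIA PaCa-2 array, and IRF7 and IFI27 in 0. MX1 was not detected in the MIA PaCa-2 control arrays, so the size of its difference is uncertain.

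Averaged over the 4 pairs, 20 member probes were higher and 9 lower, against 25.2% of all probes called (12.5% higher and 12.7% lower), and 21 higher and 2 lower under median scaling. That scaling split the calls over all probes into 3303 higher and 934 lower, where quantile normalization gave 3023 and 3069. By gene, BST2 (1.88 ± 0.12), GBP1 (1.18 ± 0.12), LGALS3BP (1.05 ± 0.09) and IFI27 (1.00 ± 0.08) led the 16 higher genes, and IFITM1 (-0.67 ± 0.10) and HERC5 (-0.48 ± 0.10) the 6 lower ones. These averages cover unlike changes: IFI27 was detected in no MIA PaCa-2 array and HERC5 in 1, and BST2 did not pass in Capan-1. LGALS3BP was not detected in the MIA PaCa-2 control arrays. ISG15, which changed in opposite directions, averaged 0.24 ± 0.08 (SE, limma adjusted p = 0.045), a call that 10 of the 12 removals of 1 array ended (0.17 to 0.28).

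The genes upstream of the response were taken from a list of ligands, receptors, signaling proteins and sensors. Of the 11 interferon ligands with a probe, IFNW1 was tested, and it passed in no pair. The probes of IFNA1, IFNA2, IFNB1, IFNG, IFNE, IFNK, IL28A, IL28B and IL29 were detected in 0 arrays. The remaining ligand with a probe did not pass the detection filter. Among the 27 tested genes of the list, 7 were higher and 2 lower with sh1209 in MIA PaCa-2 (8 and 1 with sh1319), and 7 were higher and 1 lower with sh1209 in Capan-1 (3 and 2 with sh1319). The shares called in either direction, 33.3%, 33.3%, 29.6% and 18.5%, compare with 18.0%, 24.3%, 16.8% and 13.7% of all tested probes, and the last is near that background. By direction, 9.05%, 12.2%, 8.14% and 6.95% of all probes were higher and 8.99%, 12.1%, 8.69% and 6.77% lower. STAT3 was higher with sh1209 in both lines (0.77 and 0.67) and lower with sh1319 in both (-1.29 and -0.68). IFNGR1, the ligand-binding chain of the interferon gamma receptor, was higher with sh1319 in MIA PaCa-2 (1.22) and with both hairpins in Capan-1 (1.31 and 0.73). SOCS1, a feedback inhibitor of the JAK kinases, passed as higher in 3 pairs, though 1 group of each did not detect it. IKBKE, a kinase that acts upstream of IRF7, was higher with sh1209 in Capan-1 (1.22).

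Of 33 further interferon inducible genes outside the 43, 5, 9, 6 and 6 were higher and 2, 2, 1 and 1 lower with sh1209 and sh1319 in MIA PaCa-2 and with sh1209 and sh1319 in Capan-1. The shares called in either direction, 21.2%, 33.3%, 21.2% and 21.2%, were not far from the 18.0%, 24.3%, 16.8% and 13.7% of all tested probes. By direction, 9.05%, 12.2%, 8.14% and 6.95% of all probes were higher and 8.99%, 12.1%, 8.69% and 6.77% lower. Most calls of this list were higher in each pair. CXCL10, a chemokine that attracts T cells, was detected in 1 MIA PaCa-2 array and rose in Capan-1 by 2.24 with sh1209 and 0.72 with sh1319. GBP2, a relative of GBP1, was higher in all 4 pairs, by 1.36, 2.59, 1.12 and 0.46. SLFN11, which acts in the response to DNA damage, was higher in MIA PaCa-2 with both hairpins (0.95 and 1.98).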

How the data were processed

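Total RNA (500 ng) was the input for each Illumina HumanHT-12 v4 array. The authors deposited probe intensity on a linear scale and a detection p-value for each probe and array, with no normalization. The submitters' processing notes name GenomeStudio 2011.1. Of 47320 rows, 92 spike-in control rows were left out, and genes carry the names that the deposited table gives. Intensities were background-corrected with limma's nec (normexp, offset 16), quantile-normalized and put on the log2 scale. The fit of 6 group means (lmFit and eBayes, limma 3.58.1, R 4.3.3, 6 residual degrees of freedom) took the 24207 of 47228 probes detected at p under 0.05 in at least 2 arrays, with Benjamini-Hochberg adjustment over all of them within each comparison and a threshold of 0.05. Where no array of a group detected a probe, a fold is a lower bound against the lowest detected signal. The number of arrays, 2 per group, limits the precision. In simulated data for sh1209 in Capan-1, 92.5% of 200 changes of 1 among 24207 probes were recovered, with 3.65% false calls. These rates hold for changes of that size only, and many of the calls above were smaller.

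The members and lists were chosen with earlier results of these data known. Their shares set against those of all tested probes are therefore descriptions and not unbiased tests. The naming rule takes PTK2, every member by role, per-array values for the 3 largest called changes in each hairpin and line pair, and ISG15, STAT2, IRF9, IRF1 and IRF7. Other members with large changes had their per-array values given after these were seen. Alternatives were no background correction, offset 50, median scaling, no filter, a stricter filter, array weights, a fit of 1 line, the replicate number as a block, the methods' t-test and each array left out.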

Additional observations from a re-analysis of the deposited data

Results flagged for a closer look

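For 16 members named by the rule, the change with each hairpin was compared between the lines, as the change in Capan-1 minus that in MIA PaCa-2. Over both hairpins, 20 of these differences passed at a limma adjusted p under 0.05. Of all tested probes, 14.8% passed with sh1209 and 14.0% with sh1319. The rule named most of the 16 for large changes in these same pairs, which favors such differences, so the count of 20 is not a test. With sh1209 the difference was -3.27 for BST2, 1.86 for UBE2L6, 3.16 for IFI27, 2.05 for IFI6, 1.39 for MX1, 0.68 for ISG15, 0.72 for IRF9 and 0.72 for IRF7. The call for IRF9 was lost without MIA PaCa-2 shCtrl or sh1209 replicate 2 or Capan-1 shCtrl or sh1209 replicate 2 (0.60 to 0.70). That for IRF7 was lost without MIA PaCa-2 shCtrl replicate 1 or sh1209 replicate 2, either Capan-1 shCtrl array or Capan-1 sh1209 replicate 1 (0.57 to 0.72), and that for ISG15 without MIA PaCa-2 sh1209 replicate 1 or shCtrl replicate 2, either Capan-1 sh1209 array or Capan-1 shCtrl replicate 2 (0.55 to 0.70). Median scaling gave 0.86 for IRF9 and 0.75 for ISG15, which did not pass (adjusted p 0.064 and 0.12).

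With sh1319 the difference was -3.64 for BST2, -2.77 for GBP1, -2.12 for HERC5, -1.97 for ISG15, -1.61 for IFIT1, -1.56 for ISG20, -1.14 for IRF1 and -1.09 for LGALS3BP. It was 1.12 for IRF7, 1.01 for IFI27, 1.00 for IRF9 and 0.92 for STAT2. Under median scaling the difference for LGALS3BP was -0.79 and that for STAT2 0.98, and neither passed (adjusted p 0.12 and 0.056). IFI27 and IRF7 were detected in 0 of the 6 MIA PaCa-2 arrays, so their values rest on Capan-1. MX1 and LGALS3BP were not detected in the MIA PaCa-2 control arrays, so the size of their differences is uncertain.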

How the results depend on the processing

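The counts of member probes called kept within 1.5 times of their value under no background correction, offset 50, no filter, a stricter filter (detection p under 0.01 in at least 4 arrays), array weights and a fit of 1 line, where these applied. Median scaling gave 5 for sh1209 in MIA PaCa-2 (9 under quantile normalization), 16 for sh1319 against sh1209 in Capan-1 (26) and 14 for the difference between the lines with sh1319 (29). The methods' t-test on the same values, with Benjamini-Hochberg adjustment, called 0 member probes in each of the 6 comparisons within a line. Limma called 9 to 29 there. Over all 24207 probes the adjusted t-test called 0 to 4 in each of these comparisons. In Capan-1 against MIA PaCa-2 with shCtrl it called 22 member probes (36 with limma) and 3905 of all probes. At an unadjusted p under 0.05 it called 5, 23, 22 and 25 member probes for sh1209 and sh1319, first in MIA PaCa-2 and then in Capan-1. It called 24 and 28 for sh1319 against sh1209 in MIA PaCa-2 and Capan-1, and 36 between the lines. In the same order it called 4613, 5646, 4935, 4393, 5492, 3988 and 8686 of all 24207 probes. The cause of the differences between these settings was not tested.

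With each array left out in turn, the counts ranged from 11 to 22 for sh1209 in Capan-1, 16 to 29 for sh1319 in Capan-1, 14 to 27 for sh1319 against sh1209 in Capan-1 and 9 to 17 for the difference between the lines with sh1209. The fit with the replicate number as a block gave 8, 26, 20 and 28 for sh1209 and sh1319, first in MIA PaCa-2 and then in Capan-1, against 9, 26, 21 and 29 without the block. Deviations of same-numbered arrays correlated at -0.06 to 0.16 over 15 pairs of groups, so the numbers were not taken to pair the arrays.

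Values that did not pass and lay near 0 turned their sign in 15 cases. Under median scaling these were HERC5 (0.038) and IRF1 (0.13) with sh1209 and IRF1 (0.058) with sh1319 in Capan-1. With each array left out in turn, values for sh1209 in MIA PaCa-2 ran from -0.063 to 0.23 for HERC5, -0.050 to 0.015 for IFI27, -0.16 to 0.14 for IRF7 and -0.080 to 0.18 for ISG15, and HERC5 with sh1319 there from -0.11 to 0.41. With sh1319 in Capan-1 they ran from -0.048 to 0.27 for IFI6, -0.48 to 0.096 for IRF1 and -0.027 to 0.037 for IRF9.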
